A study of Meriones unguiculatus with 18 samples.

Results

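Liver RNA of Mongolian gerbils (Meriones unguiculatus) kept on a high-fat diet was compared between 4 and 16 weeks of feeding, in 3 libraries at each time, which are 6 of the 18 libraries of the study. The other libraries are 6 of 8 weeks, not analysed here, and 6 of gerbils on a normal diet (ND) at 4 and 16 weeks, used for comparison and in added fits. The gerbils were male, with a starting weight of 40 to 60 g and no stated genetic change, and all livers of the 2 groups compared came from the high-fat diet (HFD). That diet was 80.5% ordinary feed with 2% cholesterol, 0.5% bile salt, 7% lard bile and 10% egg yolk powder. The number of animals is stated as 36, or 6 per group, in the treatment protocol and as 18, or 3 per group, in the design. Nothing states if 1 animal or several went into each library, so the SD and p-values measure the spread between these libraries. Animals sampled at 16 weeks were also older, so time on the diet and age cannot be told apart within HFD.

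A diet rich in fat and cholesterol loads hepatocytes with lipid. In long-standing fatty liver disease, macrophages that take up lipid gather in the tissue, and hepatic stellate cells, the vitamin A-storing pericytes of the sinusoid, turn into myofibroblasts that lay down collagen. Hepatocytes carry most of the liver's detoxification, amino acid, bile acid and energy metabolism. In whole liver RNA, fewer cells of a type and less RNA per cell cannot be told apart.

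The values are normalized expression levels of unigenes, the transcripts kept from an assembly made without a genome. All libraries share nearly 1 set of sorted values, so each value follows closely from the row's rank, and the depth of each library is unknown. Over the top 1000 sorted values the largest gap between libraries was 0.60%. At the low end the HFD libraries differed, with 2053 to 3012 rows at the lowest value. Of 13172 unigenes, 8518 had a mean of at least 1 over the 6 libraries and were tested, and 2907 of those carried a gene name in the deposited table. limma was fitted to log2(value + 1), and a row with a Benjamini-Hochberg adjusted p under 0.05 was called. A fold on this scale understates the change of low genes. In the sentences below, values are given for libraries 1, 2 and 3 of each time in that order. A row counted as detected in a library if its value was above the lowest of that library, so a value of 0 means not detected.

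In all, 1450 rows were called (17.0% of those tested), 833 higher at 16 weeks (9.78%) and 617 lower (7.24%). Among named rows 755 were called (26.0%), 489 of them higher (16.8%) and 266 lower (9.15%). The median log2 change over all rows tested was -0.01. Groups did not overlap in 3199 rows (37.6%), in 51.2% of the named rows, and in all 1450 called rows. Where groups of a called gene are said below to be apart, this describes the values and adds no support to the call. The libraries numbered 1 detected other rows than those numbered 2 and 3: 383 tested rows were detected in the 4 libraries numbered 2 and 3 alone and 135 in the 2 numbered 1 alone, and none of these was called. Such rows are split in the same way at both times, so the lack of calls was close to fixed in advance. It does not show that the library numbers left other calls untouched. HFD 16W 2 was the most extreme library: it held the highest value of its group in 61.1% of the 409 named rises detected in all 6 libraries and the lowest in 77.8% of the 257 falls, against 35.3% and 35.6% of all named rows detected in all 6. With 1 library left out the count of called rows was between 710 and 1055, and without both libraries numbered 1, at 2 against 2, limma called 0 rows while 2245 had an unadjusted p under 0.05. A fit of those 4 libraries with the 6 of the normal diet, added after the data were seen, called 931.

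The tissue was liver by its leading transcripts. ALB, which encodes serum albumin, had 28764, 8090.0 and 28764 at 4 weeks and 8090.0, 5759.6 and 28764 at 16 weeks, a log2 difference of -0.77 that did not pass (adjusted p = 0.804). Of 24 genes on a hepatocyte identity list 7 were tested and none was called, with a median of -0.16. Only 4 of the 7 were detected in all 6 libraries, with a median of -0.30. Rows named AHSG, Apoa2 and Ambp, genes of this list that encode plasma proteins of the hepatocyte, were detected in the libraries numbered 1 alone. None of the 135 tested rows with that pattern was called, so the lack of a call says little about these genes.

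The genes that rose most encoded a macrophage glycoprotein, secreted regulators, matrix proteins and cytoskeletal proteins. Gpnmb, a transmembrane glycoprotein of lipid-laden macrophages, had 13.4, 18.0 and 30.2 at 4 weeks and 1522, 1522 and 1263 at 16 weeks (log2 fold change 6.13, SE 0.29, adjusted p = 0.000570). All 3 libraries of 16 weeks stood far above those of 4 weeks, with little spread among themselves. Sfrp1, a secreted Wnt antagonist, had 2.58, 5.28 and 5.11 at 4 weeks and 103, 269.7 and 126 at 16 weeks (log2 fold change 4.89, SE 0.40, adjusted p = 0.00247). Ccl21a, a chemokine that draws CCR7-bearing lymphocytes and dendritic cells, had 9.17, 8.87 and 5.78 at 4 weeks and 200.5, 222 and 172 at 16 weeks (log2 fold change 4.49, SE 0.20, adjusted p = 0.000570). Neither gene had overlapping groups. Fndc1, a fibronectin type III domain protein, rose from 0.343, 0.684 and 0.823 at 4 weeks to 37.2, 54.1 and 27.3 at 16 weeks (4.61, adjusted p = 0.00150).

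Clu, which encodes the secreted chaperone clusterin, had 1073, 875 and 1134 at 4 weeks and 28764, 28764 and 8090.0 at 16 weeks (log2 fold change 4.20, SE 0.82, adjusted p = 0.0175). It was the highest row of HFD 16W 1 and HFD 16W 2 and the second of HFD 16W 3, places held at 4 weeks by ALB or by rows with no name. The top values are shared by all libraries, so the fold of Clu is bounded by what its rank can give. Leaving out HFD 4W 1, HFD 4W 2 or HFD 4W 3 ended its call (adjusted p up to 0.0837).

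Other large rises were found for genes with different roles. Ckb, the brain-type creatine kinase, had 13.4, 10.7 and 28.2 at 4 weeks and 322, 391 and 292 at 16 weeks (log2 fold change 4.29, SE 0.34, adjusted p = 0.00236). Igfbp2, a binding protein of insulin-like growth factors, had 29.9, 20.5 and 79.1 at 4 weeks and 1073, 381 and 945 at 16 weeks (log2 fold change 4.28, SE 0.58, adjusted p = 0.00735), and the lowest of the 16-week values was in HFD 16W 2. The groups of both genes were apart. The serine protease Htra4 (4.00, adjusted p = 0.00197), the calcium-binding protein S100A2 (3.96, adjusted p = 0.00442), the myelin protein Pmp22 (3.79, adjusted p = 0.00304), the pentraxin Ptx3 (3.69, adjusted p = 0.00197) and the prion protein PRNP (3.61, adjusted p = 0.00442) rose as well, these numbers being log2 fold changes.

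**Figure D1:**
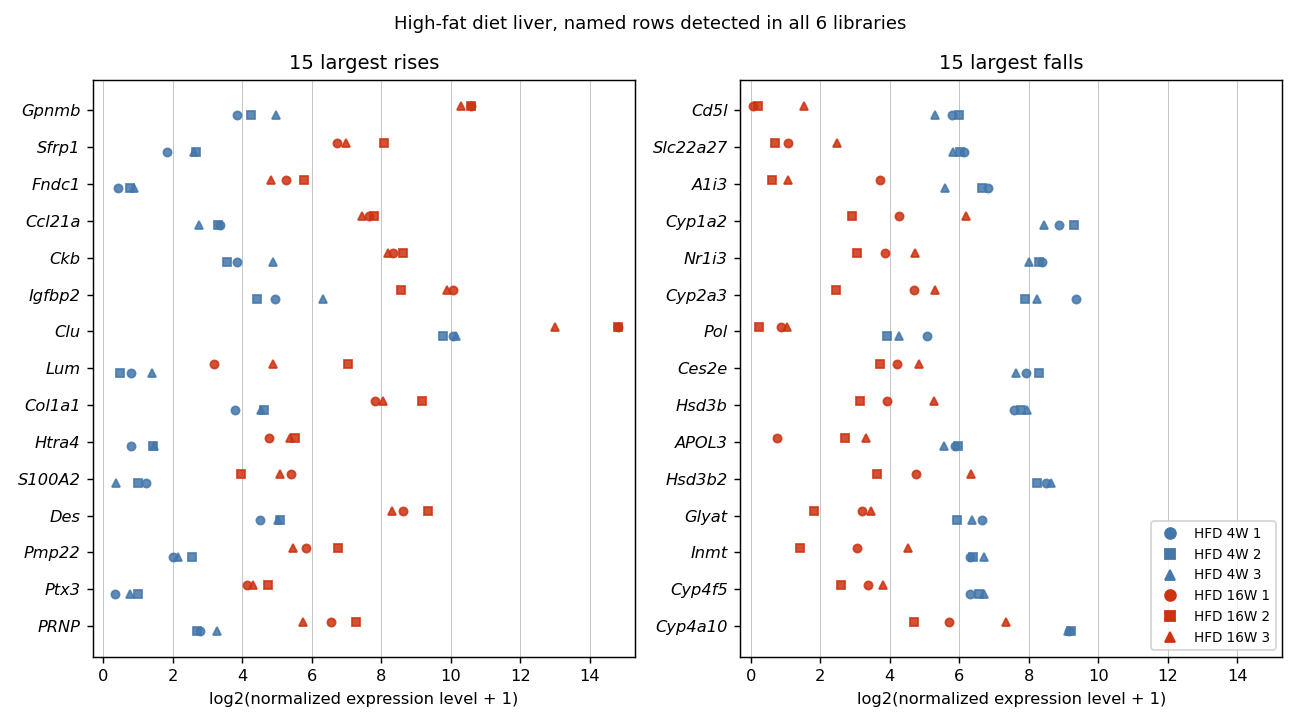
The 15 largest rises (left) and the 15 largest falls (right) among named rows detected in all 6 libraries, with the log2 of the normalized expression level plus 1 on the x axis. Each point is 1 library, blue for HFD 4W and red for HFD 16W, with the shape giving the library number. The groups are apart in all 30 genes because the choice of genes required it, and Gpnmb and Cd5l are the top rise and fall.

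Matrix genes rose together. All 5 tested genes of the collagen list rose, and all 5 did so with any 1 library left out, with a median log2 change of 2.87. Col1a1, a chain of the fibrillar collagen type I, had 12.8, 23.4 and 22.2 at 4 weeks and 226, 572 and 263 at 16 weeks (log2 fold change 4.04, SE 0.39, adjusted p = 0.00377). The 16-week values lay above all 4-week values, and HFD 16W 2 was the highest. Col5a2, a chain of the type V collagen that starts fibrils, had 6.02, 5.45 and 4.80 at 4 weeks and 22.2, 36.0 and 17.7 at 16 weeks (log2 fold change 1.98, SE 0.27, adjusted p = 0.00735). Col6a1 (2.87, adjusted p = 0.0125), of the beaded-filament collagen type VI, and Col15a1 (2.58, adjusted p = 0.0104) and Col16a1 (3.25, adjusted p = 0.00615), which are collagens with interrupted helices, rose too.

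Of 4 tested genes that process collagen 3 rose and none fell. Serpinh1, the chaperone that folds procollagen in the endoplasmic reticulum, had 17.0, 27.2 and 27.7 at 4 weeks and 87.5, 243 and 104 at 16 weeks (log2 fold change 2.43, SE 0.40, adjusted p = 0.0112). Fkbp10, a prolyl isomerase acting on procollagen (1.68, adjusted p = 0.00986), and Timp3, a metalloprotease inhibitor bound to matrix (1.44, adjusted p = 0.00908), were the others. P4ha2, a collagen prolyl hydroxylase subunit, did not pass (-0.70, adjusted p = 0.102).

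Of 16 tested matrix glycoproteins and proteoglycans 8 rose and none fell, with a median of 1.49 (6 to 8 rose with 1 library left out). Eln, which encodes elastin, had 1.79, 4.10 and 3.90 at 4 weeks and 33.4, 28.6 and 29.8 at 16 weeks (log2 fold change 2.94, SE 0.26, adjusted p = 0.00290). Thbs2, a thrombospondin of the cell surface and matrix, had 0.543, 0.496 and 0.945 at 4 weeks and 6.63, 14.6 and 8.06 at 16 weeks (log2 fold change 2.64, SE 0.33, adjusted p = 0.00668). In each of these genes the lowest 16-week value was several times the highest 4-week value. Cyr61, a matricellular protein (3.43, adjusted p = 0.00938), Tnc, the repair-associated tenascin C (2.26, adjusted p = 0.0140), and the basement membrane genes Agrn (1.82, adjusted p = 0.00622), Lamb2 (1.39, adjusted p = 0.00648) and Lamb3 (1.95, adjusted p = 0.0161) rose as well. The rise of Lamb3 did not pass without HFD 4W 3 or HFD 16W 2 (adjusted p up to 0.0537). FN1, the fibronectin gene, was listed above 0 in the libraries numbered 1 alone and was not called (-0.32). Efemp1 (1.52), Lama5 (1.46) and Fbn1 (0.80) were higher in the mean without passing.

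Of 32 genes on the stellate cell and myofibroblast list 8 were tested, 7 rose and none fell, with a median of 2.50. Des, the muscle-type intermediate filament desmin that marks rodent stellate cells, had 21.8, 33.1 and 31.5 at 4 weeks and 391, 646 and 312 at 16 weeks (log2 fold change 3.87, SE 0.30, adjusted p = 0.00236). Thy1, a surface glycoprotein of fibroblasts, had 1.80, 2.93 and 1.78 at 4 weeks and 13.7, 25.4 and 22.5 at 16 weeks (log2 fold change 2.74, SE 0.28, adjusted p = 0.00419). For both, the 16-week libraries were above every 4-week library, and HFD 16W 2 was the highest. Lum, the keratan sulphate proteoglycan lumican, had 0.724, 0.383 and 1.65 at 4 weeks and 8.03, 131 and 28.7 at 16 weeks (log2 fold change 4.15, SE 0.90, adjusted p = 0.0249); the call ended without any 1 HFD 4W library or HFD 16W 3 (adjusted p up to 0.0753).

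The smooth muscle genes of the list had calls that depended on single libraries. TAGLN, an actin-binding protein (2.26, adjusted p = 0.0142), MYL9, a myosin light chain (2.03, adjusted p = 0.0149), and ACTG2, a smooth muscle actin (1.42, adjusted p = 0.0340), rose, but their adjusted p reached 0.0555, 0.0541 and 0.121 with 1 library left out. The call ended without HFD 4W 2 or 3 for TAGLN, without HFD 4W 3 for MYL9 and without any 1 HFD 4W library or HFD 16W 1 or 3 for ACTG2. With the library number as a block, ACTG2 had an adjusted p of 0.0570. Between 3 and 7 members rose with 1 library left out. Reln, made by quiescent stellate cells, did not pass (0.15). The summed level of the list was 897, 654 and 807 at 4 weeks and 2689, 2739 and 2358 at 16 weeks.

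Macrophage genes moved in both directions. Of 33 on the general macrophage list 12 were tested, 4 rose and 1 fell, with a median of 0.83. Cd68, an endosomal glycoprotein of phagocytes, had 35.1, 54.3 and 45.6 at 4 weeks and 168, 318 and 200.5 at 16 weeks (log2 fold change 2.29, SE 0.28, adjusted p = 0.00623). Itgax, the integrin chain CD11c carried by recruited macrophages and dendritic cells, had 3.16, 3.75 and 4.66 at 4 weeks and 30.2, 29.0 and 31.7 at 16 weeks (log2 fold change 2.70, SE 0.17, adjusted p = 0.00150). Cd53, a leukocyte tetraspanin (1.99, adjusted p = 0.00631), and Slc11a1, a metal transporter of the phagosome (1.62, adjusted p = 0.00669), rose too. Aif1 (0.77), SPI1 (1.04) and Mrc1 (0.88) did not pass.

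The largest fall of any named gene was also on that list. Cd5l, a secreted protein made by resident liver macrophages (Kupffer cells), had 54.1, 62.8 and 38.2 at 4 weeks and 0.0356, 0.141 and 1.89 at 16 weeks (log2 fold change -5.10, SE 0.42, adjusted p = 0.00254). Every 16-week library was far below every 4-week library, and 2 of the 3 were near the lowest value. On the Kupffer cell list of 17 genes, 7 were tested, Cd5l fell, and Hmox1, the haem oxygenase, rose (1.12, adjusted p = 0.0251; adjusted p up to 0.0838 without any 1 HFD 4W library or HFD 16W 3). The scavenger receptors CD163 (-0.15) and Stab1 (-0.09) were not called, nor was FOLR2, a folate receptor of resident macrophages (-0.03), and the list's median was -0.09. Its summed level was 183, 195 and 169 at 4 weeks and 121, 229 and 154 at 16 weeks, which overlapped.

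Genes known from lipid-associated macrophages rose. Of 29 on that list 9 were tested, 5 rose and none fell, with a median of 2.25. These were Gpnmb, Itgax, Cd68, Cd63 and Ch25h, the cholesterol 25-hydroxylase (1.96, adjusted p = 0.0384), whose call ended under the library number as a block (adjusted p = 0.0515) and reached 0.103 with any 1 HFD 4W library or HFD 16W 2 or 3 left out. Cd63, a tetraspanin of late endosomes, had 197, 246 and 194 at 4 weeks and 1189, 991 and 875 at 16 weeks (log2 fold change 2.25, SE 0.24, adjusted p = 0.00442). Lgals3, galectin 3, had 12.3, 0 and 0 at 4 weeks and 78.7, 215 and 0 at 16 weeks, a log2 difference of 3.45 that did not pass (adjusted p = 0.305). The list's summed level was 262 to 332 at 4 weeks and 2378 to 3091 at 16 weeks. Gpnmb and Cd63 alone gave most of that sum at 16 weeks, and 4 of the 9 tested members were not called.

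Lysosomal genes rose too. Of 64 on the list 16 were tested, 9 rose and none fell, with a median of 1.05 (7 to 10 rose with 1 library left out). Psap, the precursor of the saposins that help degrade sphingolipids, had 172, 204 and 189 at 4 weeks and 823, 1134 and 1134 at 16 weeks (log2 fold change 2.43, SE 0.24, adjusted p = 0.00372). NAGLU, which cleaves heparan sulphate, had 8.62, 12.0 and 12.0 at 4 weeks and 42.8, 46.6 and 47.5 at 16 weeks (log2 fold change 1.99, SE 0.16, adjusted p = 0.00254). Both were apart between the times in every library. The hydrolases Hexa (1.39, adjusted p = 0.00631), Galns (1.50, adjusted p = 0.00668) and Ctsa (1.15, adjusted p = 0.0115) and the proton pump accessory protein Atp6ap1 (1.48, adjusted p = 0.00442) rose. Ctsz and Atp6v1h also rose (1.53 and 0.94), with adjusted p up to 0.0641 without HFD 4W 1 or 3 and up to 0.0897 without any 1 HFD 4W library or HFD 16W 1 or 2. The membrane protein Lamp1 (0.29) and the pump subunit ATP6V0D1 (-0.14) did not pass.

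**Figure D2:**
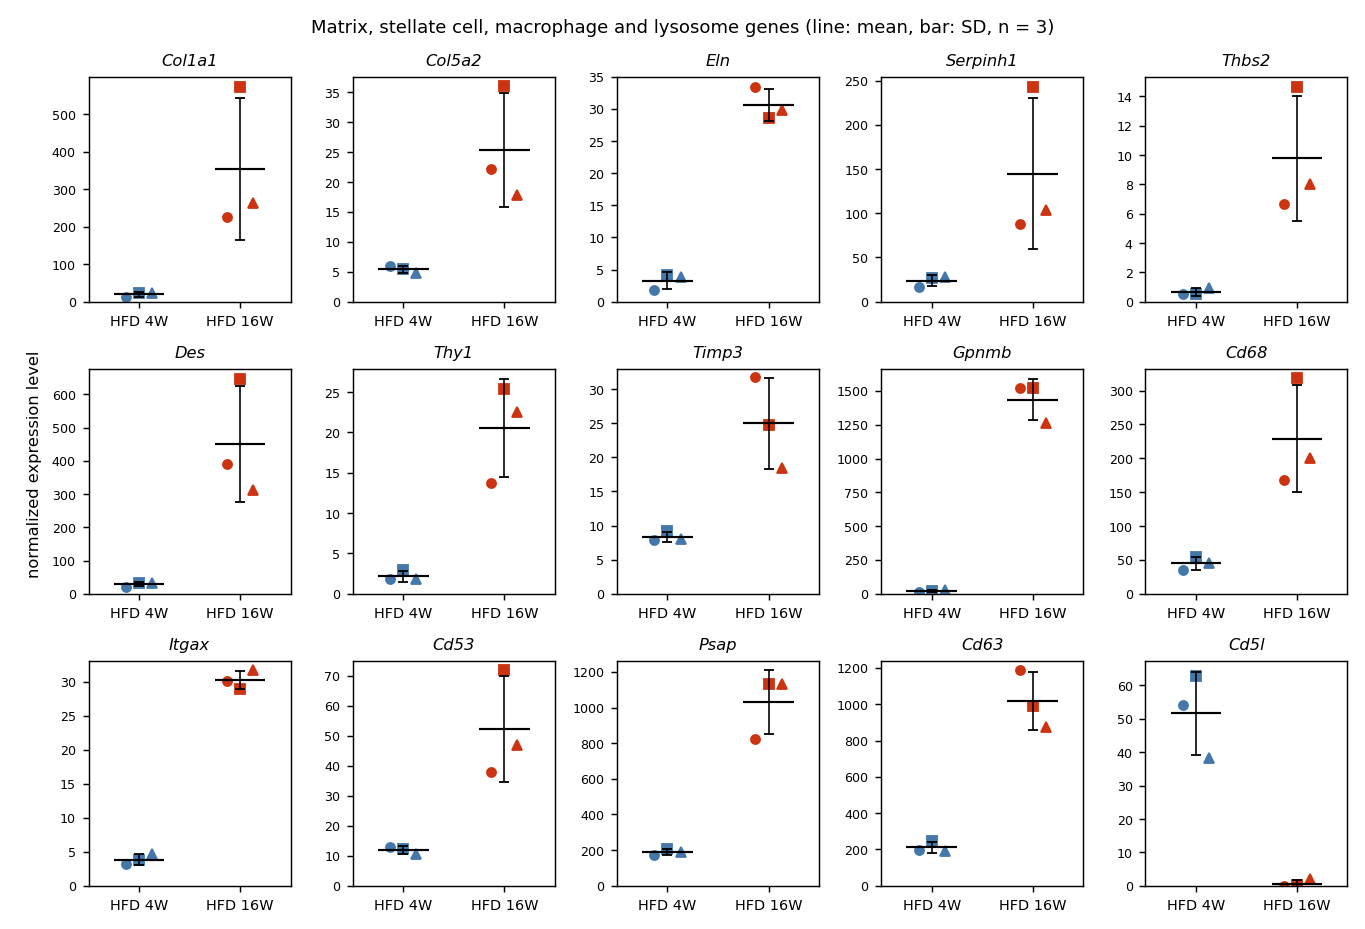
Normalized expression level (y axis, linear, starting at 0) of 15 matrix, stellate cell, macrophage and lysosome genes in the 3 HFD 4W libraries (blue) and the 3 HFD 16W libraries (red), with the mean as a line, the SD as a bar and the shape giving the library number. The 16-week values are above the 4-week values in 14 genes, from Col1a1 to Cd63, and below them in Cd5l.

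Most tested genes of the cytoskeleton and of cell motility rose. Of 23 tested, 19 rose and none fell, with a median of 1.39, and 17 to 18 rose with 1 library left out. Gsn, which severs actin filaments, had 3.48, 4.96 and 5.63 at 4 weeks and 59.7, 79.1 and 41.4 at 16 weeks (log2 fold change 3.40, SE 0.27, adjusted p = 0.00236). Ezr, which ties actin to the membrane of epithelial cells, had 4.96, 6.57 and 6.21 at 4 weeks and 54.0, 55.1 and 40.7 at 16 weeks (log2 fold change 2.88, SE 0.18, adjusted p = 0.00150). Flna, an actin cross-linker, had 8.84, 7.27 and 7.86 at 4 weeks and 55.0, 77.5 and 42.3 at 16 weeks (log2 fold change 2.68, SE 0.23, adjusted p = 0.00290). The 3 genes had all 16-week libraries above all 4-week libraries. Subunits of the Arp2/3 complex, which branches actin, moved unequally: ACTR2 (2.17, adjusted p = 0.00224), ARPC5 (1.59, adjusted p = 0.00631), Actr3 (1.39, adjusted p = 0.00708) and ARPC4 (1.22, adjusted p = 0.0125) rose, and ARPC1A did not pass (-0.07). The tubulins TUBB2B (1.90, adjusted p = 0.00708) and Tubb6 (1.74, adjusted p = 0.00679) rose and TUBB4B did not pass (-0.56); the first pair come from 1 assembly cluster and can share reads. The adhesion protein ZYX (1.48, adjusted p = 0.0106), the cross-linker Actn4 (1.34, adjusted p = 0.0110), and Cap1 (1.56, adjusted p = 0.00781), Tpm3 (1.38, adjusted p = 0.00589) and MYL12B (1.35, adjusted p = 0.00784) rose.

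Clu, Ckb and Sfrp1 are also on the cholangiocyte and progenitor list, of whose 28 genes 5 were tested and 4 rose (2 to 5 with 1 library left out), with a median of 4.20. The anion exchanger Slc4a2 was the other (1.03, adjusted p = 0.0146; adjusted p up to 0.0546 without HFD 4W 1 or 2), and PKHD1, a ciliary protein of bile ducts, did not pass (1.29). The cytokeratins, Epcam and Sox9, which are markers of bile duct cells on the list, had no tested row under those names. Clu and Sfrp1 are made by other cells as well. Clu alone gave most of the list's summed level, 899.7 to 1177 at 4 weeks and 8527 to 29445 at 16 weeks.

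Of 13 tested chemokines, cytokines and receptors 4 rose (2 to 3 with 1 library left out) and none fell. Over all named rows 16.8% rose and 9.15% fell, so counts this small say little about a list. Beside Ccl21a, CSF2RA, the alpha chain of the GM-CSF receptor, had 14.9, 19.4 and 19.2 at 4 weeks and 59.1, 78.3 and 59.2 at 16 weeks (log2 fold change 1.82, SE 0.18, adjusted p = 0.00377), with no overlap. Cxcl12, a stromal chemokine (1.71, adjusted p = 0.0227), and Tnfrsf12a, the TWEAK receptor (1.29, adjusted p = 0.0366), rose, with adjusted p up to 0.0695 without any 1 HFD 4W library or HFD 16W 3, and up to 0.116 without any 1 of the 6 libraries. Under the library block Tnfrsf12a had 0.0613. Cxcl10 (-1.13) and CCR1 (-0.43) did not pass. None of the 2 T and natural killer cell genes and 4 neutrophil genes tested was called. Neither was any of 3 red cell genes, whose summed level was 912, 1659 and 445 at 4 weeks and 1862, 4505 and 697 at 16 weeks; it was highest in HFD 16W 2, the most extreme library, and its part in the results was not tested. Of 7 endothelial genes Ccl21a and Flt4, a receptor of lymphatic endothelium (0.89, adjusted p = 0.0342), rose and Ramp2 fell (-0.72, adjusted p = 0.0161). The last pair lost their calls with 1 library left out (up to 0.0985 without any 1 HFD 4W library or HFD 16W 1 or 2, and 0.0635 without HFD 4W 2 or 3 or HFD 16W 1), and Flt4 did under the library block (0.0577).

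Many of the falls were in hepatocyte metabolism. On the list of xenobiotic receptors, cytochromes P450 and conjugation 20 genes were tested, 11 fell and none rose, with a median of -1.99 (6 to 12 fell with 1 library left out). Nr1i3, the nuclear receptor CAR that switches on detoxification genes, had 335, 314 and 255 at 4 weeks and 13.5, 7.30 and 25.4 at 16 weeks (log2 fold change -4.35, SE 0.40, adjusted p = 0.00304). Cyp1a2, a cytochrome P450 that oxidizes aromatic amines and caffeine, had 464, 627 and 344 at 4 weeks and 18.3, 6.47 and 72.4 at 16 weeks (log2 fold change -4.41, SE 0.77, adjusted p = 0.0126). In both genes no 16-week library reached the 4-week range, and HFD 16W 2 was lowest. Cyp3a11, a broad drug-metabolizing P450, had 1189, 945 and 2138 at 4 weeks and 239.7, 154 and 304 at 16 weeks (log2 fold change -2.57, SE 0.41, adjusted p = 0.00995). Cyp2j6 (-2.04, adjusted p = 0.00679), the glutathione transferase Gstt1 (-2.00, adjusted p = 0.0128) and the carboxylesterase Ces1d (-2.71, adjusted p = 0.0104) fell too. Cyp2a3 fell by 4.35 on the log2 scale in the row that ranked among the largest falls (adjusted p = 0.0126). Near-identical copies of these families can share reads, so each value is uncertain as to the copy. The dioxin receptor Ahr (0.35) and its partner Arnt (0.22) did not pass.

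Other large falls were in related functions. Slc22a27, an organic anion carrier, had 69.2, 64.2 and 55.4 at 4 weeks and 1.08, 0.604 and 4.55 at 16 weeks (log2 fold change -4.59, SE 0.44, adjusted p = 0.00372). Ces2e, another carboxylesterase, had 239.7, 312 and 197 at 4 weeks and 17.5, 12.2 and 27.5 at 16 weeks (log2 fold change -3.69, SE 0.31, adjusted p = 0.00271). Both were apart in every library. The steroid dehydrogenases Hsd3b (-3.65, adjusted p = 0.00735) and Hsd3b2 (-3.54, adjusted p = 0.0126), the glycine conjugation enzyme Glyat (-3.49, adjusted p = 0.00669), the methyltransferase Inmt (-3.48, adjusted p = 0.0206), the fatty acid hydroxylase Cyp4f5 (-3.26, adjusted p = 0.00337), the protease inhibitor A1i3 (-4.56, adjusted p = 0.0132) and APOL3 (-3.55, adjusted p = 0.0123) fell. Hsd3b2 lost its call without HFD 4W 3 (adjusted p = 0.0503) and Inmt without any 1 HFD 4W library or HFD 16W 1 (up to 0.0705).

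In the list of amino acid breakdown and the urea cycle 12 of 21 tested genes fell and none rose, with a median of -1.75; 4 to 11 fell with 1 library left out. Kmo, the kynurenine hydroxylase of tryptophan breakdown, had 33.2, 41.7 and 36.1 at 4 weeks and 6.36, 3.86 and 9.99 at 16 weeks (log2 fold change -2.37, SE 0.30, adjusted p = 0.00662). Abat, the transaminase of 4-aminobutyrate, had 14.6, 12.3 and 18.0 at 4 weeks and 2.52, 0.864 and 3.79 at 16 weeks (log2 fold change -2.32, SE 0.36, adjusted p = 0.00971). In each, the highest 16-week value stayed below the lowest 4-week value. Afmid, another enzyme of the kynurenine route, fell (-2.30, adjusted p = 0.00730), as did Dmgdh of choline breakdown (-2.08, adjusted p = 0.0134; 0.0502 without HFD 4W 2). The falls of Got1 (-2.18), Hpd (-1.99), Agxt2 (-1.92), Cdo1 (-1.91), Etnppl (-1.88), Amdhd1 (-1.75), Glud1 (-1.04) and the urea cycle enzyme Ass1 (-1.83) passed with all libraries and not with some 1 library left out. Their adjusted p then reached between 0.0567 and 0.114, each of the 6 libraries ending the call of at least 1 of them. Under the library block Ass1 had 0.0593. Cps1, the first enzyme of the urea cycle, had 875, 731 and 1189 at 4 weeks and 496, 212 and 474 at 16 weeks. Its groups did not overlap, but the log2 difference of -1.31 did not pass (adjusted p = 0.0708; 0.0495 under the library block).

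Fatty acid oxidation and ketone body genes fell in 5 of 6 tested, with a median of -2.26, though 1 to 5 fell with 1 library left out. ACOT1, a thioesterase that frees fatty acids from coenzyme A, had 42.7, 50.2 and 59.0 at 4 weeks and 10.7, 6.86 and 14.5 at 16 weeks (log2 fold change -2.19, SE 0.27, adjusted p = 0.00623), with no overlap. Cyp4a10, the PPAR-alpha target that starts omega-oxidation, had 572, 588 and 557 at 4 weeks and 50.6, 24.6 and 163 at 16 weeks (log2 fold change -3.25, SE 0.61, adjusted p = 0.0160), and its call ended without any 1 HFD 4W library or HFD 16W 1 (up to 0.0593). Ehhadh of peroxisomal oxidation (-2.49, adjusted p = 0.0241) and Eci2 (-2.33, adjusted p = 0.0334) fell too. Without any 1 HFD 4W library or HFD 16W 1 the adjusted p of Ehhadh reached 0.0802. The call of Eci2 ended without HFD 4W 1 or 2 or any 1 HFD 16W library (up to 0.105) and also under the library block (0.0626). Of 9 tested peroxisome genes 5 fell and none rose (2 to 5 with 1 library left out). Cat, the catalase, had 1031, 1073 and 991 at 4 weeks and 249, 246 and 420.4 at 16 weeks (log2 fold change -1.80, SE 0.29, adjusted p = 0.0105). Decr2, a reductase for unsaturated fatty acids, fell (-1.73, adjusted p = 0.0113).

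Among genes of sugar metabolism 16 were tested, 4 fell and 3 rose (2 to 4 and 1 to 3 with 1 library left out). Gys2, the liver glycogen synthase, had 53.1, 49.6 and 50.4 at 4 weeks and 5.27, 3.76 and 6.65 at 16 weeks (log2 fold change -3.09, SE 0.20, adjusted p = 0.00150). Gckr, the inhibitor of glucokinase, had 24.9, 29.6 and 32.3 at 4 weeks and 8.17, 4.80 and 8.57 at 16 weeks (log2 fold change -1.90, SE 0.23, adjusted p = 0.00623). PKM, the pyruvate kinase of non-hepatocyte cells and of dividing tissue, moved the other way, with 17.7, 19.1 and 20.6 at 4 weeks and 119, 229 and 110.2 at 16 weeks (log2 fold change 2.85, SE 0.28, adjusted p = 0.00387). The groups of all 3 genes were apart. The gluconeogenic enzyme Fbp1 (-1.89) fell and the glycolytic enzymes Eno1 (0.92) and Pgam1 (0.70) rose, all 3 with an adjusted p that passed with the 6 libraries and reached 0.0828 to 0.105 with 1 left out, each of the 6 libraries but HFD 16W 2 ending at least 1 of these calls. The liver glycogen phosphorylase Pygl (-0.45) and the glucose carrier Slc2a2 (-0.64) did not pass.

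Lipid synthesis genes did not move as 1 group. Of 8 tested for fatty acid and triglyceride synthesis 3 rose and 1 fell, with a median of 0.03, but among the 6 detected in all 6 libraries 1 rose and 1 fell, with a median of -0.28. Mlxipl, the carbohydrate-response factor ChREBP, had 41.1, 39.6 and 43.5 at 4 weeks and 6.50, 3.37 and 10.8 at 16 weeks (log2 fold change -2.54, SE 0.34, adjusted p = 0.00735). Pnpla3, a lipid droplet protein with lipase and acyltransferase activity, had 1.23, 1.05 and 1.03 at 4 weeks and 8.84, 6.62 and 5.50 at 16 weeks (log2 fold change 1.90, SE 0.25, adjusted p = 0.00724). Both had groups apart, in opposite directions. ACACB, the mitochondrial acetyl-CoA carboxylase, was listed at 0 in all 3 libraries of 4 weeks and had 6.92, 2.60 and 9.16 at 16 weeks; it passed the filter through 1 group alone and so had to differ. DGAT2, of the last step of triglyceride synthesis, was listed at 0 in 2 libraries of 4 weeks and rose (1.96, adjusted p = 0.0441), but not under the library block (0.0765) or without HFD 4W 1 or 2 or any 1 HFD 16W library (up to 0.136). Fasn, the fatty acid synthase, had 15.3, 15.7 and 27.2 at 4 weeks and 19.3, 23.2 and 28.0 at 16 weeks and did not pass (0.30).

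In cholesterol synthesis 6 genes were tested, 3 fell (1 to 3 with 1 library left out) and 1 rose. Ebp, a sterol isomerase, had 37.1, 25.7 and 35.5 at 4 weeks and 11.03, 6.17 and 10.8 at 16 weeks (log2 fold change -1.73, SE 0.25, adjusted p = 0.00897). Insig1, which holds the sterol sensor in the endoplasmic reticulum, had 13.5, 15.1 and 19.9 at 4 weeks and 40.8, 34.7 and 34.1 at 16 weeks (log2 fold change 1.14, SE 0.18, adjusted p = 0.00964). The groups of each were apart. Cyp51a1 (-0.78) and Scap (-0.67) fell with all libraries but not without any 1 HFD 4W library or HFD 16W 2 or 3 (up to 0.120) and any 1 HFD 4W library or HFD 16W 2 or 3 (up to 0.0945). Of 12 tested apolipoprotein and lipoprotein genes Vldlr, the receptor for triglyceride-rich particles, had 0.207, 0.297 and 0.321 at 4 weeks and 3.56, 4.48 and 2.79 at 16 weeks and rose (log2 fold change 1.84, SE 0.32, adjusted p = 0.0124). LRP1, a remnant receptor, rose (0.99, adjusted p = 0.0187; up to 0.0699 without any 1 HFD 4W library or HFD 16W 1). For bile acids, Slc27a2, a fatty acid and bile acid coenzyme A ligase, had 308, 328 and 322 at 4 weeks and 49.9, 31.1 and 113 at 16 weeks (log2 fold change -2.49, SE 0.43, adjusted p = 0.0124), and the organic anion carriers SLC22A9 (-2.61, adjusted p = 0.0116) and Slco1a4 (-2.03, adjusted p = 0.0356; up to 0.10 without any 1 HFD 4W library or HFD 16W 1) fell.

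Genes of secreted hepatocyte products differed by list. Of 11 tested coagulation genes 3 fell (1 to 3 with 1 library left out) and none rose, while of all named rows 9.15% fell and 16.8% rose. F9, clotting factor IX, had 87.5, 77.5 and 67.1 at 4 weeks and 14.0, 5.64 and 24.2 at 16 weeks (log2 fold change -2.52, SE 0.45, adjusted p = 0.0134), and its groups were apart. F7 (-2.07, adjusted p = 0.0199) and Klkb1, plasma prekallikrein (-1.56, adjusted p = 0.0363), fell, with adjusted p up to 0.0669 without any 1 HFD 4W library or HFD 16W 1 and up to 0.106 without any 1 HFD 4W library or HFD 16W 1. Prothrombin, F2 (0.36), and the fibrinogen chain Fgg (0.21) did not pass. Of 17 acute phase and plasma protein genes Clu and Igfbp2 rose, a share below the 16.8% of all named rows, and Leap2, an antimicrobial peptide, fell (-2.33, adjusted p = 0.0450; up to 0.120 without any 1 of the 6 libraries).

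**Figure D3:**
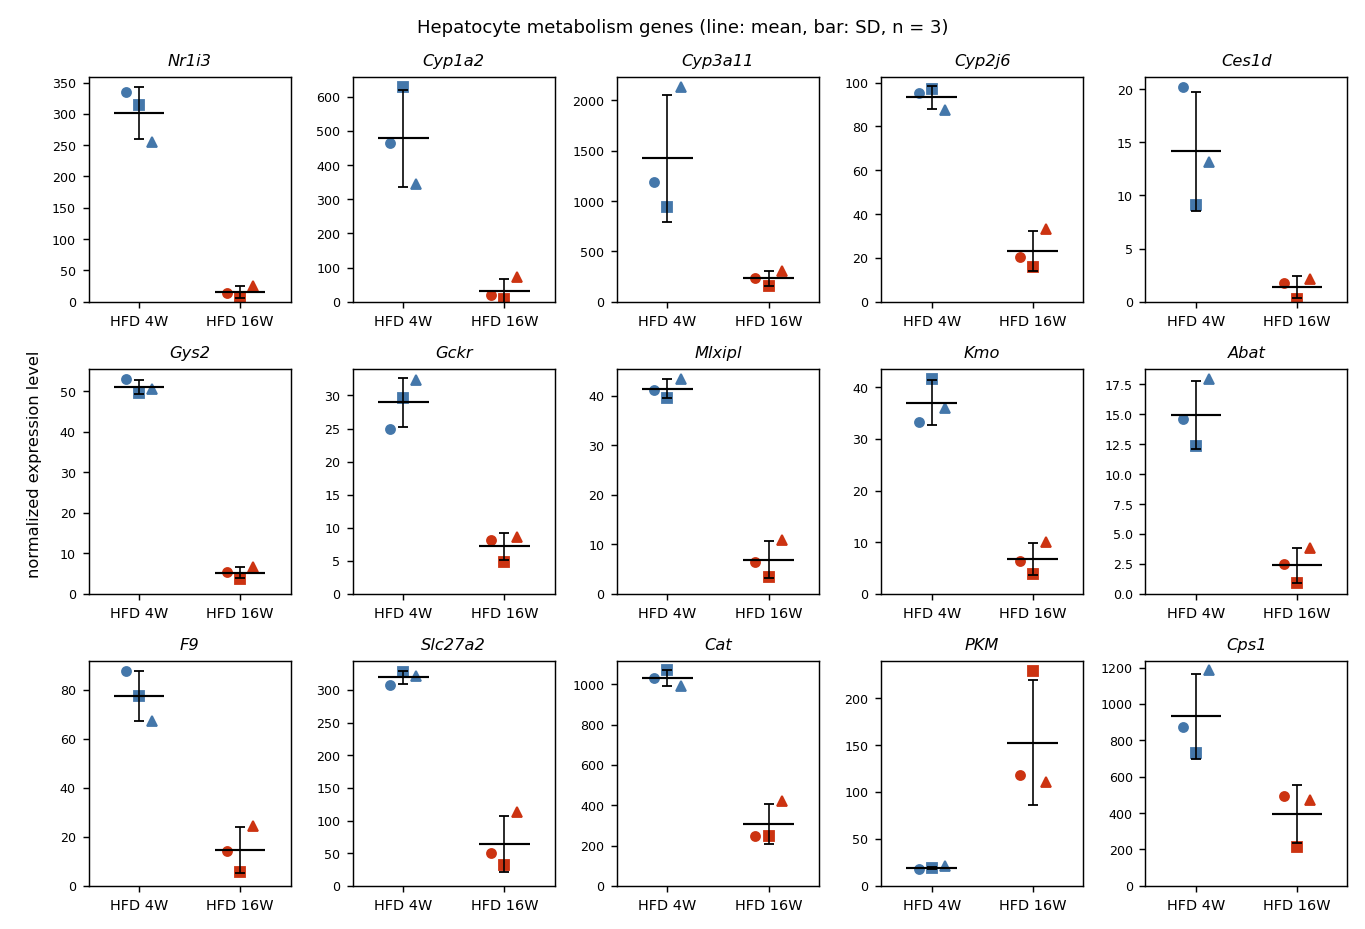
Normalized expression level (y axis, linear, starting at 0) of 15 metabolic genes in the 3 HFD 4W libraries (blue) and the 3 HFD 16W libraries (red), with the mean as a line, the SD as a bar and the shape giving the library number. PKM rises, and the other 14 genes are lower in every 16-week library than in every 4-week library, of which Cps1 did not pass the test.

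Cell stress and housekeeping groups gave mixed counts, to be read beside the 16.8% of all named rows that rose and the 9.15% that fell. Of 7 antioxidant genes 5 rose and 1, Cat, fell (2 to 3 rose with 1 library left out). Tkt, the transketolase of the pentose phosphate route, had 51.3, 52.4 and 51.9 at 4 weeks and 138, 200.5 and 154 at 16 weeks (log2 fold change 1.63, SE 0.17, adjusted p = 0.00442), and SRXN1, which repairs peroxiredoxins, rose (1.32, adjusted p = 0.0137). Both had groups apart. Of 13 endoplasmic reticulum folding genes 4 rose and none fell, among them Calr, the chaperone calreticulin (1.10, adjusted p = 0.00930), with 1 to 3 rising when 1 library was left out. Among 10 cytosolic chaperones HSPB1, a small heat shock protein, rose (1.96, adjusted p = 0.00899), DNAJA1, a co-chaperone, fell (-0.92, adjusted p = 0.0105), and Cryab (1.84) and Hsp90aa1 (0.69) rose with all libraries but not without any 1 HFD 4W library (up to 0.0784) and without any 1 of the 6 libraries (up to 0.118). Of 14 respiratory chain genes 3 fell and 1 rose, but 1 fell without HFD 4W 1 or HFD 4W 2, and none rose without any 1 library other than HFD 16W 3; Ndufb5 of complex I fell (-0.97, adjusted p = 0.00819). No proteasome gene of 6 was called. Of 8 cell cycle genes 2 rose, Ccnd3 (0.89, adjusted p = 0.0197) and Ttk (1.42, adjusted p = 0.0390), with 0 to 1 rising when 1 library was left out. Their adjusted p reached 0.0679 without HFD 4W 1 or 3 or HFD 16W 1 or 2 and 0.102 without any 1 of the 6 libraries, and Ttk had 0.0718 under the library block. Mki67, a proliferation marker, did not pass (0.98). Of 10 interferon and antigen presentation genes Ifngr1, a chain of the interferon-gamma receptor, rose (1.45, adjusted p = 0.00784), and Oas2 (-2.30) and STAT2 (-0.59) fell. Their adjusted p reached 0.0645 without HFD 4W 1 or 2 or HFD 16W 2 and 0.109 without any 1 HFD 4W library or HFD 16W 1 or 2. Of 6 clock genes Per2 (-0.93) and Per3 (-1.14) fell, and neither did in any fit with 1 library left out; no hour of collection was stated in the labels. Of 4 genes of the fetal liver and liver cancer list YAP1, a growth-promoting coactivator, rose (1.16, adjusted p = 0.0118).

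Signalling and regulation lists held few tested genes, while over all named rows 16.8% rose and 9.15% fell. Of 4 Wnt genes Sfrp1 alone was called, and the pericentral targets Axin2 (0.50) and GLUL (-0.33) did not pass. Of 3 TGF-beta and BMP genes Inhbe, an activin chain of the hepatocyte, fell (-2.57, adjusted p = 0.0249; 0.0516 under the library block, up to 0.0850 without HFD 4W 1 or 2 or HFD 16W 1 or 2). Of 6 insulin and nutrient signalling genes Igfbp2 rose. Of 7 immediate early genes JUN (0.83) and Socs3 (1.29) rose, with 0 to 1 rising when 1 library was left out (adjusted p up to 0.103 without any 1 of the 6 libraries, and 0.109 without any 1 HFD 4W library or HFD 16W 2 or 3). Of 6 genes of the p53 and cell death list Perp fell (-0.93, adjusted p = 0.0391; up to 0.113 without any 1 HFD 4W library or HFD 16W 1 or 2), and of 6 of the tricarboxylic acid cycle Sucla2 fell (-0.86, adjusted p = 0.0209; up to 0.0684 without any 1 HFD 4W library). Of 4 lipid droplet genes Ces1d and Hsd17b11 (-0.91, adjusted p = 0.0263; up to 0.0838 without any 1 HFD 4W library or HFD 16W 1 or 2) fell and Pnpla3 rose. Of 5 bile acid genes 2 fell, and of 8 solute carriers 4 fell, with none rising in either list; 1 bile acid gene fell without any 1 HFD 4W library or HFD 16W 1, and 2 solute carriers fell without HFD 4W 1 or HFD 4W 3. The 1 adipocyte gene tested was not called, and no B cell or mesothelial gene was tested. Of 10 iron and haem genes 3 rose: Slc11a1, Hmox1 and the biliverdin reductase Blvra (1.05, adjusted p = 0.0131).

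**Figure D4:**
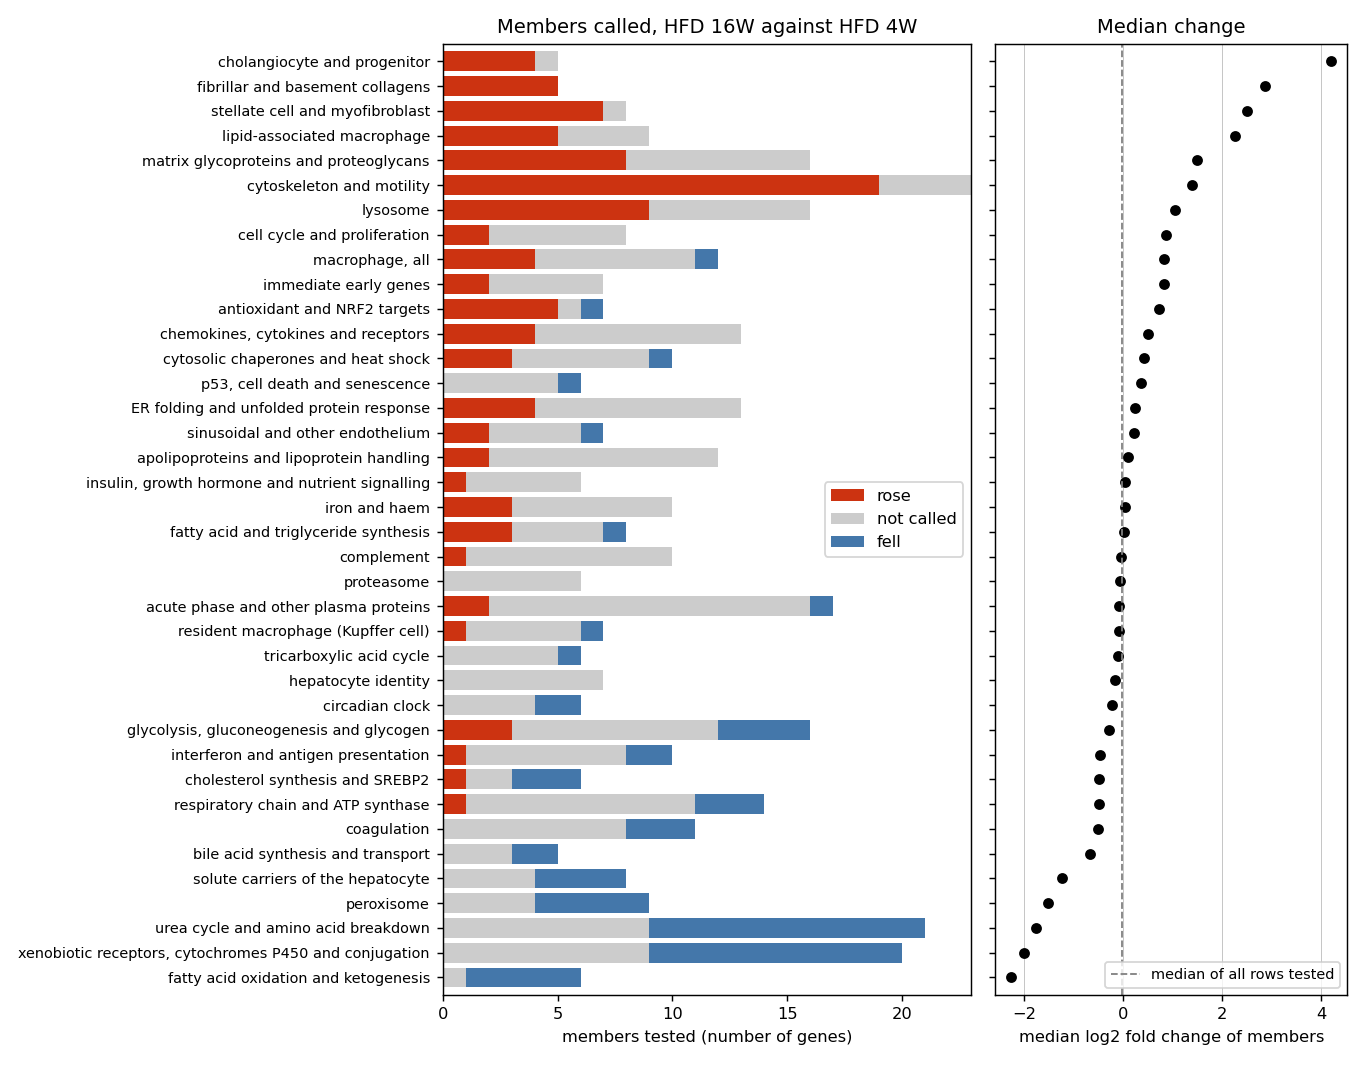
Gene lists with at least 5 tested members, ordered by the median log2 fold change of HFD 16W against HFD 4W. The lists were chosen with earlier results of these data known, so their order is a description. The left panel counts members that rose, fell or were not called, and the right panel gives the median log2 fold change, with a dashed line at the median of all rows tested; the cholangiocyte and progenitor list is at the top, followed by collagen, stellate cell and lipid-associated macrophage lists, with xenobiotic, amino acid and fatty acid oxidation lists at the bottom.

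Some named rows were called without being detected in all 6 libraries, and for those detected at 1 time alone no fold is given. Of 209 tested rows detected in all 3 libraries of 16 weeks and none of 4 weeks, 161 were called, 45 of them named; a row that passed the mean filter through 1 group alone had to differ. Mmp11, a stromal metalloprotease, was listed at 0 at 4 weeks and had 4.33, 6.41 and 9.13 at 16 weeks. Tcf12, a transcription factor, was also listed at 0 at 4 weeks and had 5.11, 5.52 and 6.78 at 16 weeks. Foxc2, a transcription factor of lymphatic vessels, had 5.08, 8.75 and 3.58, and Sema3c, a secreted guidance protein, 3.81, 5.85 and 6.84, both after 0 in each library of 4 weeks. These 4 genes are among the 209 rows, so their detection at 16 weeks alone follows from that grouping, and no p-value is given for them. TRPC6, a cation channel, was also listed at 0 at 4 weeks, and its call ended without HFD 4W 3 or HFD 16W 1 (up to 0.0579), as did that of Mamdc2 without HFD 4W 1 or 3 or HFD 16W 2 or 3 (up to 0.0716) and that of TEAD2 without HFD 16W 2 (up to 0.0589). In the other direction Xcl1, a chemokine of lymphocytes, had 7.26, 11.9 and 9.57 at 4 weeks and 0.0625, 0 and 1.46 at 16 weeks (adjusted p = 0.00820). Its values at 16 weeks were all below those at 4 weeks.

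The same weeks on the normal diet were then set beside these changes, in a fit of the 12 libraries of both diets at 4 and 16 weeks (9487 rows). On ND, 36 rows were called between 4 and 16 weeks (0.379%). The median log2 change on ND was -0.05, a value that many rows share exactly, so the lowest value of an ND library may lie above 0. The change on HFD differed from that on ND in 959 rows (10.1%), 522 with the more positive change on HFD and 437 with the more negative. Of the 1305 rows called on HFD that were in this fit, 748 (57.3%) had a called difference, all with the sign of the HFD change. The comparison uses the HFD libraries that chose those rows, so this share describes them. Without both HFD libraries numbered 1 the count was 455, and without HFD 16W 2 it was 590.

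For Gpnmb the ND libraries had 2.36, 1.28 and 1.81 at 4 weeks and 1.48, 8.73 and 9.80 at 16 weeks, a log2 change of 1.20, and the difference between diets was 4.93 (SE 0.67, adjusted p = 0.00206). For Col1a1 they had 1.02, 0.941 and 0.921 at 4 weeks and 1.14, 0.591 and 0.626 at 16 weeks, and the difference was 4.18 (SE 0.45, adjusted p = 0.000604). Neither gene's ND libraries reached the HFD values of 16 weeks. For Cd5l they had 9.10, 0.548 and 6.83 at 4 weeks and 22.2, 26.7 and 11.4 at 16 weeks, a log2 change of 2.01, and the difference was -7.11 (SE 0.89, adjusted p = 0.00142): the gene fell on HFD while the mean of the ND libraries was higher at 16 weeks. For Nr1i3 they had 369, 278 and 298 at 4 weeks and 298, 229 and 237 at 16 weeks, with a difference of -4.05 (SE 0.47, adjusted p = 0.000860). Of the 15 largest rises 14 differed between diets, the exception being Igfbp2, at 2.84 (SE 1.03, adjusted p = 0.112), and of the 15 largest falls 14, the exception being APOL3, at -2.54 (SE 0.75, adjusted p = 0.0538). The difference was called for 7 of 8 stellate cell genes, 5 of 5 collagens, 8 of 16 lysosome genes, 12 of 21 amino acid genes and 9 of 19 xenobiotic genes in the fit. It was called for only 2 of 6 fatty acid oxidation genes and 1 of 9 peroxisome genes, though 5 fell on HFD in each list. Of 11 endoplasmic reticulum folding genes in the fit, 0 had a called difference with the more positive change on HFD and 1 with the more negative. The difference was not called for Cyp3a11 (adjusted p = 0.0593), Cat (0.163), Pnpla3 (0.0692) or any of the 14 respiratory chain genes.

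**Figure D5:**
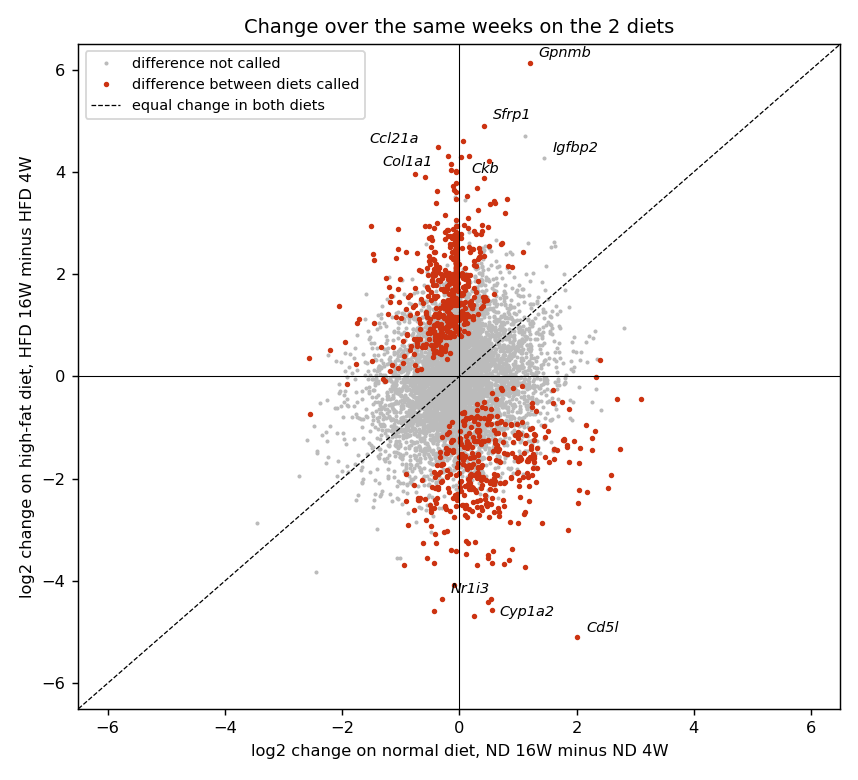
Log2 change between 4 and 16 weeks on the normal diet (x axis) and on the high-fat diet (y axis) for the rows of the high-fat comparison that were also in the fit of both diets, 1 point per row. Red points are rows whose change differed between diets at an adjusted p under 0.05, and the dashed line marks equal change; Gpnmb and Cd5l are at the ends of the y axis, and Igfbp2 is among the rows with no called difference.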

How the data were processed

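Poly(A) RNA of gerbil liver was sequenced, one library per sample, and the 6 HFD libraries of 4 and 16 weeks were grouped by the titles. Per the labels' protocols, the reads were assembled with Trinity 2.4.0 without a genome, and the longest transcript of a cluster was kept as the unigene. The submitters' processing notes also name Salmon and edgeR, with no version or role. The values used are the normalized expression levels (a signal per unigene, not counts) that the authors deposited, whose abundance unit before that step is not stated. All libraries hold nearly the same sorted values, apart from the number of rows at the lowest value, so they behave as quantile-normalized. Values follow ranks, the highest values recur, and a shift of the whole library cannot be seen. Read depth, counting errors and intervals cannot be had from such values.

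The values were tested as log2(value + 1), for rows with a mean of at least 1, in limma 3.58.1 (R 4.3.3) with a variance trend and Benjamini-Hochberg adjustment over all rows tested. The difference between diets was an interaction contrast over 12 libraries (9487 rows). The fitting script was tested on simulated data of 8518 rows. It called 41% of 100 rows with a log2 change of 2 and 53% of 100 rows with a change of 3. Of its calls 4.08% were false. A row that did not pass is therefore not shown to be unchanged. Gene names are those of the deposited table, and 2390 of the 2907 named rows tested carry a name found in the gerbil annotation Bangor_MerUng_6.1. No sequence of a unigene was used here. Named genes are the 15 largest rises and 15 largest falls among called, named rows detected in all 6 libraries whose groups do not overlap, the 10 largest of each among those not detected in all 6, and members of the lists, of which some that did not pass are given where they define a list. There were 49 lists (13 of cell type markers), 47 with a tested member, and the row with the highest mean stood for a name. The comparison, the members and the lists were chosen with earlier results of these data known. Same-numbered libraries of 4 and 16 weeks deviated together from their group means (correlations of 0.44, 0.21 and 0.14 for numbers 1, 2 and 3), so the number was treated as a pairing in an alternative fit. Numbers 2 and 3 were also positively correlated with each other across times (0.15 and 0.11), while pairs of number 1 with 2 or 3 lay between -0.31 and -0.21. Other alternatives were pseudocounts of 0.1 and 5, other filters, median-ratio rescaling, no trend, a term for the library set, the 12-library fit, values summed by name, each library left out and both libraries numbered 1 left out. Other software was Python 3.11.15, pandas 2.3.3 and matplotlib 3.10.9. The 6 libraries of 8 weeks were not used here. Some members of the lists are counted but not reported by name here.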

Additional observations from a re-analysis of the deposited data

Results flagged for a closer look

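The change between 4 and 16 weeks differed between the high-fat and the normal diet, by limma's test of the difference with Benjamini-Hochberg adjustment over 9487 rows, in 28 of the 30 genes with the largest changes. The HFD libraries that chose the genes are also in this test, so the differences describe those genes. Values below are the log2 change on HFD minus that on ND, each from 3 libraries per group, and none was tested for a cause.

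Among rises the difference was 4.93 for Gpnmb, 4.86 for Ccl21a, 4.71 for S100A2, 4.55 for Fndc1, 4.47 for Sfrp1, 4.29 for Lum and 4.26 for Ckb. It was 4.18 for Col1a1, 4.05 for Htra4, 3.84 for Pmp22, 3.71 for Clu, 3.67 for PRNP, 3.45 for Des and 3.39 for Ptx3. Adjusted p-values ran from 8.62e-05 for Ccl21a to 0.0201 for Lum.

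Among falls it was -7.11 for Cd5l, -5.11 for A1i3, -4.90 for Cyp1a2, -4.88 for Cyp2a3, -4.15 for Slc22a27, -4.05 for Nr1i3 and -4.03 for Hsd3b2. It was -3.99 for a row named Pol, -3.98 for Glyat, -3.59 for Inmt, -3.40 for Cyp4a10, -3.22 for Hsd3b, -2.74 for Ces2e and -2.64 for Cyp4f5. Adjusted p-values ran from 0.000860 for Nr1i3 to 0.0167 for Cyp4a10. Without both HFD libraries numbered 1, 25 of the 28 differences still passed, and all 28 kept their sign. The HFD libraries that remained had also chosen these genes, so the kept signs do not measure robustness. Over all rows the same step took the count of called differences from 959 to 455.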

How the results depend on the processing

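Against 1450 called rows (833 higher and 617 lower), 9 other settings that kept all 6 libraries called 1253 to 1610. They were pseudocounts of 0.1 (1293) and 5 (1253), no filter on low values (1505), detection in all 6 libraries (1354), median-ratio rescaling (1411), no variance trend (1340), the 12-library fit (1610), a term for the library set (1492) and the library number as a replicate block (1256, with 704 higher and 552 lower). A further setting, a mean of at least 5, left 1859 rows and called 833, with 458 higher and 375 lower. Values summed by name gave 2616 sums and 960 calls, with 656 higher and 304 lower. With 1 library left out the counts were 710 to 1055, 431 to 591 higher and 279 to 464 lower. Without both libraries numbered 1, at 2 against 2, they were 0, 0 higher and 0 lower, and in the fit with the normal diet, chosen after seeing the data, 931, with 517 higher and 414 lower. For the difference between diets, 959 rows (522 and 437) became 455 (255 and 200) without both HFD libraries numbered 1, 590 to 940 (298 to 505 and 292 to 435) with 1 library left out, and 794 under the replicate block. The cause of these moves was not tested beyond the fewer rows or libraries that the settings themselves bring.

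Values whose sign turned were those of the Pol row DN29444 (-1.36 summed by name), Stab1 (0.16 without both libraries numbered 1 and in the 10-library fit, -0.80 to 0.32 with 1 library left out), FN1 (-1.11 to 0.0777 with 1 left out), CD163 (-0.96 to 0.25), FOLR2 (0.66 at pseudocount 0.1, -0.48 to 0.40 with 1 left out) and ARPC1A (0.0837 summed by name, -0.18 to 0.00762 with 1 left out). Of the 248 called genes of the naming rule and the lists, the replicate block kept 228; lost calls of named genes stand in the report, and it changed no other call of a gene named there. Depth is unknown, so low values have no counting error here.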

Other observations

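Genes outside the lists were chosen after their values were seen and are given as values. Anxa4, an annexin of secretory epithelia, had 70.0, 46.4 and 57.0 at 4 weeks and 439.9, 292 and 349 at 16 weeks (log2 fold change 2.62, SE 0.23, adjusted p = 0.00290). Mlph, a carrier of secretory granules and pigment granules, had 0.214, 0.258 and 0.241 at 4 weeks and 9.55, 7.75 and 5.37 at 16 weeks (log2 fold change 2.76, SE 0.29, adjusted p = 0.00442). St14, an epithelial surface protease, had 0.380, 1.51 and 0.525 at 4 weeks and 7.20, 11.9 and 17.5 at 16 weeks (log2 fold change 2.85, SE 0.38, adjusted p = 0.00735). The groups of the 3 genes were apart. Elf3, an epithelial transcription factor (2.00, adjusted p = 0.00838), Rab25, a GTPase of apical recycling (2.12, adjusted p = 0.00735), Kif12, a kinesin (2.59, adjusted p = 0.00545), the mucin MUC17 (2.48, adjusted p = 0.00712) and Spint2, an inhibitor of such proteases (0.98, adjusted p = 0.00836), rose too, the first number being the log2 fold change.

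The vimentin row, named vim1, had 57.6, 73.3 and 70.0 at 4 weeks and 716, 1073 and 610.2 at 16 weeks (log2 fold change 3.52, SE 0.25, adjusted p = 0.00197). LGALS1, galectin 1, had 33.8, 34.4 and 40.2 at 4 weeks and 308, 731 and 243 at 16 weeks (log2 fold change 3.36, SE 0.39, adjusted p = 0.00560). FHL2, a LIM-domain coactivator, had 4.21, 3.69 and 4.18 at 4 weeks and 34.9, 37.1 and 40.6 at 16 weeks (log2 fold change 2.94, SE 0.14, adjusted p = 0.000570). All 3 had every 16-week library above every 4-week library. Notum, a secreted Wnt inhibitor of the pericentral hepatocyte, fell (-2.17, adjusted p = 0.00690), as did Gdf2, the circulating BMP9 (-2.31, adjusted p = 0.00956). Smo, the hedgehog signal transducer, rose (2.04, adjusted p = 0.00442).

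By name families, 27 rows named as cytochromes P450 held 18 falls and no rise, with a median log2 change of -2.04. Of 10 Hnrnp rows, for proteins that bind nascent RNA, 5 rose and none fell. Of 92 rows with ribosomal protein names 10 rose and none fell, all 10 among the 17 detected in all 6 libraries. Their median log2 change was -0.20 over the 92 rows and 0.86 over the 17. RPLP0 had 328, 335 and 414 at 4 weeks and 1263, 1031 and 991 at 16 weeks (log2 fold change 1.61, SE 0.26, adjusted p = 0.0102). Of 87 rows named Pol, env or gag, which are names of retroviral genes, 31 fell and 3 rose, with a median of -0.83. In named rows as a whole 16.8% rose and 9.15% fell.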
